A study of Homo sapiens with 24 samples.

Results

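The genes described here are 48 genes of the spliceosome and of splicing regulation, out of 20046 genes that the arrays measured. They were chosen by name from the annotation of the Illumina HumanHT-12 v4 array and from their known roles, with earlier results of these data known. All 48 were found. They fall into 5 role groups: 10 genes of the U1 snRNP and the Sm core, 11 of SF1, U2AF and the SF3 complex, 6 PRPF genes, 10 SR genes and 11 hnRNP genes. Of the 48, 27 had 1 probe and 21 had several, 80 probes in all, and each gene was read from the probe with the highest mean signal over the 24 arrays.

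The arrays measured RNA of DoHH2 and TMD8 cells, which are established human lymphoma lines. DoHH2 is a line of germinal center B-cell (GCB) type and TMD8 of activated B-cell (ABC) type diffuse large B-cell lymphoma (DLBCL). Cells were treated for 8 h with the histone deacetylase inhibitor (HDACi) ITF-A at 100 nM or ITF-B at 200 nM, and each compound had its own DMSO control in each line. This gave 8 groups of 3 arrays, with 1 array per group from each of 3 independent experiments, and 1 line stands for each DLBCL type. Genotypes were not varied, and each control group received DMSO only.

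Splicing removes introns from pre-mRNA. The U1 snRNP binds the start of an intron, SF1 and U2AF bind near its end, and SF3 is the part of the U2 snRNP that holds the branch point. The PRPF proteins belong to the tri-snRNP and to the Prp19 complex that later join and activate the spliceosome. SR proteins mostly promote the use of an exon and hnRNP proteins often oppose it, so that the balance of these families helps to set alternative splicing.

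Values are log2 intensities after background correction and quantile normalization, and a change is the log2 fold change of a compound over its own DMSO control in 1 limma model of all 24 arrays. A gene rose or fell where its adjusted p was under 0.05. The median standard error of a change was 0.075 within a line and 0.106 for a difference between the lines. Array medians ran from 93.2 to 112 in intensity, and arrays of 1 group correlated at 0.993 to 0.996. The cells carried B-cell markers (CD79A from 11.28 to 12.41 and CD79B from 10.67 to 12.9), while PAX5 lay between 5.74 and 6.47, T-cell, epithelial and erythroid markers lay between 5.81 and 6.53, near the array median of 6.15, and CD14 and CSF1R, markers of monocytes, between 5.76 and 7.04. The summed level of 5 B-cell markers was 43.06 to 43.96 in DoHH2 DMSO arrays and 41.46 to 41.84 with a compound, and 48.97 to 49.45 against 44.33 to 45.31 in TMD8. That of the 2 monocyte markers was 12.06 to 12.42 in DMSO arrays of both lines, 12.71 to 13.2 in treated DoHH2 arrays and 13.46 to 13.82 in treated TMD8 arrays. The part of these shifts in the changes of the splicing genes was not tested. Since bulk RNA was measured, fewer cells of a kind and less RNA per cell cannot be told apart.

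More splicing genes fell than rose in each comparison, from 23 of the 48 with ITF-B in TMD8 to 34 with ITF-B in DoHH2. In DoHH2 33 of the 48 fell with ITF-A, 3 rose and 12 did not pass the test, against a background of 17.2% of all genes that fell and 19% that rose. With ITF-B 34 fell and 3 rose in this line (background 17% and 18.8%). In TMD8 27 fell and 6 rose with ITF-A (background 17.8% and 19.2%), and 23 fell and 6 rose with ITF-B (background 17.4% and 19.3%). Without DMSO for ITF-B replicate 3 or ITF-B replicate 2 in DoHH2, the rises with ITF-B there were 1. On chip 2 alone fewer fell in TMD8, but each TMD8 group had 1 array there, as did each DoHH2 group on chip 1. The median change over the 48 genes was -0.31 with either compound in DoHH2, while in TMD8 it was -0.21 for ITF-A and -0.16 for ITF-B. With the arrays scaled to a common median these were -0.49 and -0.52 in DoHH2 and, for ITF-B in TMD8, -0.0888. Splicing genes are bright on these arrays, with a median at the 93.3rd percentile of all genes, and bright genes are called more often. Of the 42 members with a mean log2 intensity of 8 or more, 29 fell and 2 rose with ITF-A in DoHH2, where 34.1% and 35.9% of the 5128 genes as bright did so. With ITF-B 31 fell and 2 rose in DoHH2 (background of bright genes 33.7% and 36.9%). In TMD8 26 fell and 4 rose with ITF-A (background 35% and 33.6%) and 21 fell and 4 rose with ITF-B (background 34.8% and 34%). The median change of the bright genes was 0.02 and 0.03 in DoHH2 and -0.01 and -0.0011 in TMD8 (ITF-A and ITF-B).

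In all 4 comparisons, 20 of the 48 genes fell, which is 41.7% of them, while 9.92% of all genes and 22.5% of the bright genes did so. SF3B5, PRPF3 and PRPF6 rose in all 4, which is 6.25% against 11.2% of all genes and 23.2% of the bright ones. Another 5 genes (SNRPD2, SF3B1, PRPF31, SRSF11 and HNRNPU) passed the threshold in none of the 4, as did 48.3% of all genes and 11.3% of the bright genes. The 20 that fell throughout came from 4 of the role groups, and the PRPF group had none.

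**Figure D1:**
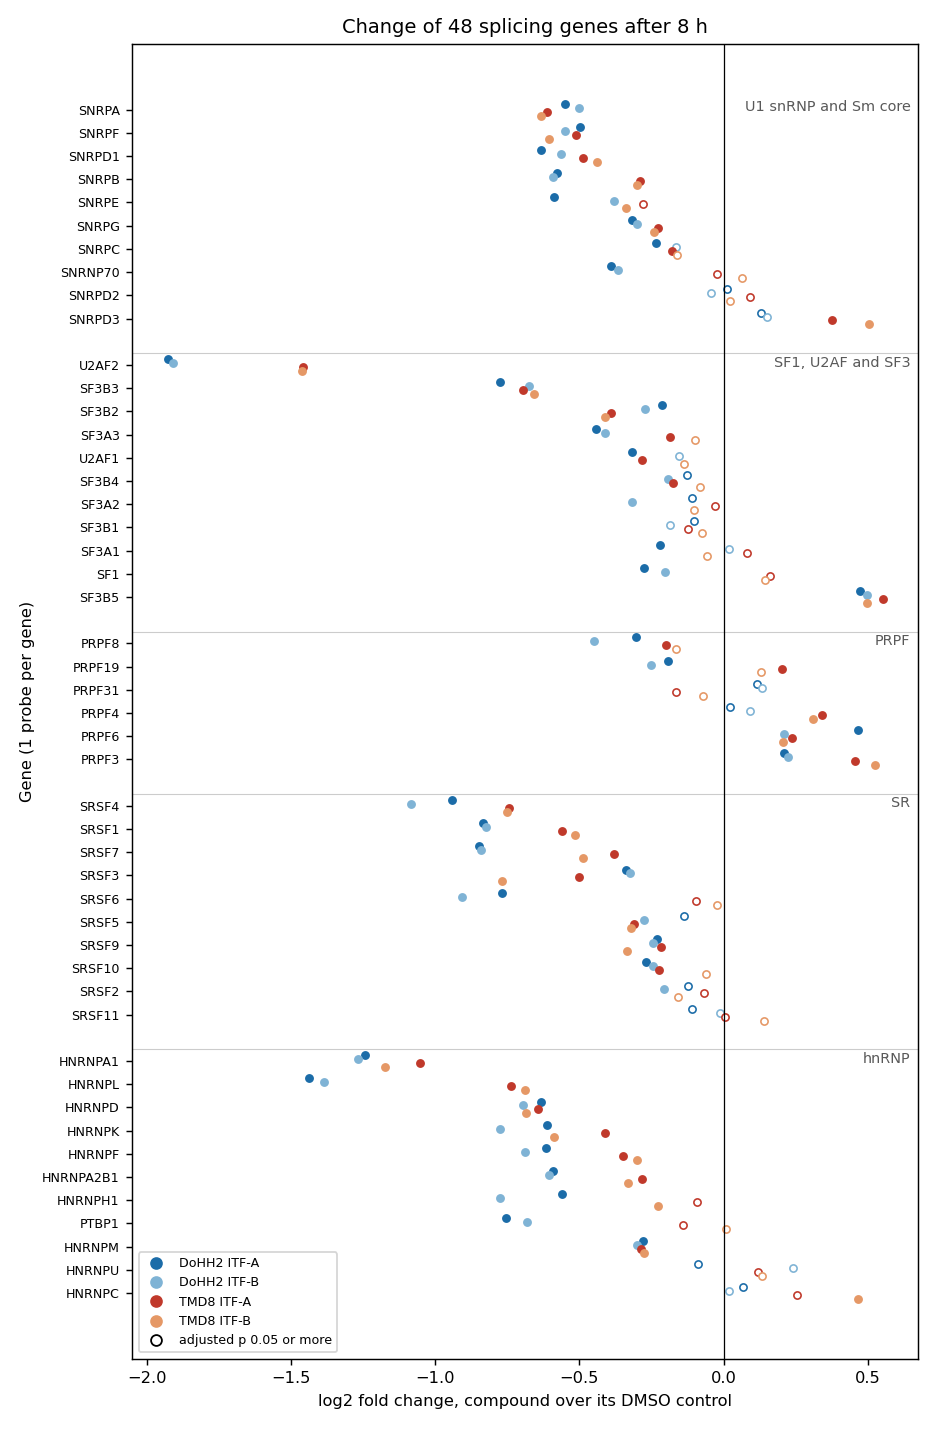
Log2 fold change (x axis) of each of the 48 genes (y axis), sorted by mean change within its role group, for the 4 comparisons (colours), with filled points for adjusted p under 0.05 and open points otherwise. U2AF2 lies farthest to the left, at -1.93 in DoHH2, and most points of the SR and hnRNP groups lie left of 0.

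**Figure D2:**
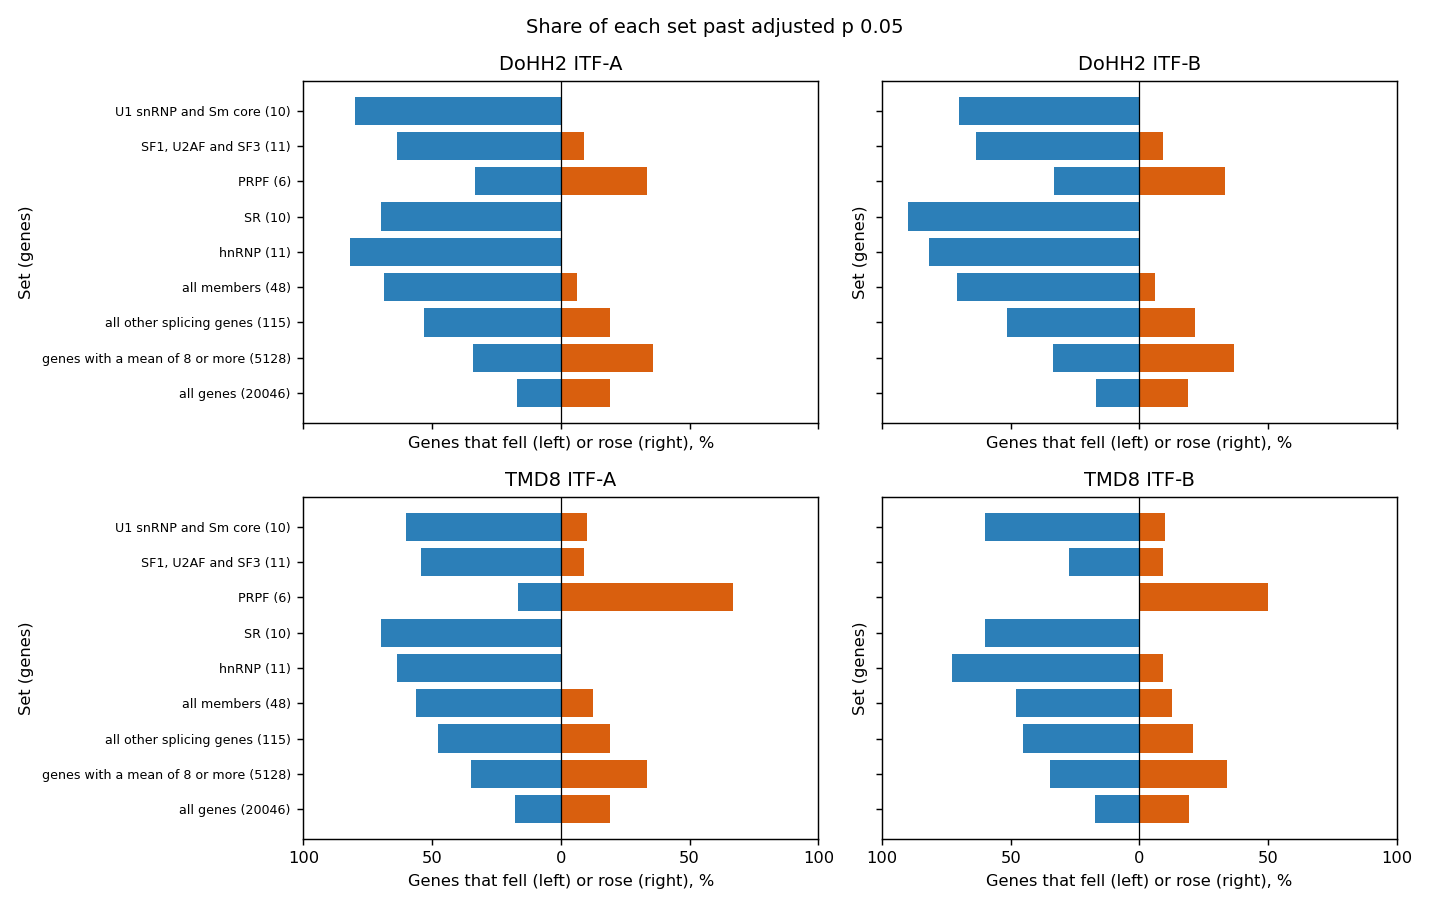
Share of each set of genes that fell (bars to the left) or rose (bars to the right) in each comparison, in percent, with the number of genes in parentheses. The bars of the 48 members reach 68.8% to the left and 6.25% to the right for ITF-A in DoHH2, where the bright genes reach 34.1% and 35.9%.

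The promoters of 4 genes are given because U2AF2 and HNRNPL are among the 3 members with the largest mean falls, and SF3B5 and PRPF6 rose in all 4 comparisons. RefSeq promoters of GRCh38.p14, from 250 bases before to 50 after the gene start, matched 43 of the 48 genes by symbol (not SNRPD1, SF3B3, PRPF3, SRSF2 and HNRNPA1) and 15034 genes of the array. The letters searched on both strands were those of the ETS core (CCGGAAG), the E-box (CACGTG), the CCAAT box, the TATA box (TATAAA) and the GC box (GGGCGG), whose sites may overlap, and a match describes the letters only. A gene was counted where any of its listed promoters matched. The ETS core was found in 17 of 43 members (39.5%), in 16.5% of all genes with a promoter and in 26.2% of the bright ones. For members, all genes and bright genes in turn, the E-box was found in 6.98%, 10.9% and 13.6%, the CCAAT box in 39.5%, 42.3% and 45.7%, the TATA box in 14%, 12.3% and 7.93%, and the GC box in 65.1%, 64.5% and 78.1%. Of the 17 members with a promoter that fell in all 4 comparisons 7 held the ETS core, as did 1 of the 2 that rose in all 4. The sequences run 5′ to 3′ on the strand of the gene, with capitals for these motifs. They are U2AF2 (chr19:55654785-55655084, plus strand), HNRNPL (chr19:38852298-38852597, minus strand, the first of 2 listed), SF3B5 (chr6:144095524-144095823, minus strand) and PRPF6 (chr20:63980882-63981181, plus strand).
U2AF2: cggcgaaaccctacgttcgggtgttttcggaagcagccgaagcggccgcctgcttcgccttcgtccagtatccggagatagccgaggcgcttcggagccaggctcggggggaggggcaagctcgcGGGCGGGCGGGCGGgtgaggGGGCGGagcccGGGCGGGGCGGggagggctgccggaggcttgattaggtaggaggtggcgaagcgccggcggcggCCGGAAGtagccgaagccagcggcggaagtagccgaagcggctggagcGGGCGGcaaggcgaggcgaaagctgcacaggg
HNRNPL: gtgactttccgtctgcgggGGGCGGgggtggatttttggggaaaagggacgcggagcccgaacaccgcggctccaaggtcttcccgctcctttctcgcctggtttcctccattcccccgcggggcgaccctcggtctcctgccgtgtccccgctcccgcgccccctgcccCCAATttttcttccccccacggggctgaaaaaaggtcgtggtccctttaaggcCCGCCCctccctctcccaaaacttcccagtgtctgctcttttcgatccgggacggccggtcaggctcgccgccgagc
SF3B5: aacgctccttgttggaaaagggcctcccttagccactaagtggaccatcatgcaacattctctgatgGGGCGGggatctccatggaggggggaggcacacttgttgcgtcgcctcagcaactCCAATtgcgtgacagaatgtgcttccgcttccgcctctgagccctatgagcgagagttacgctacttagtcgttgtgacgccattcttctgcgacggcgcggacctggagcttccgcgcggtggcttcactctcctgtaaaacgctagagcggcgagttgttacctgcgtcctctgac
PRPF6: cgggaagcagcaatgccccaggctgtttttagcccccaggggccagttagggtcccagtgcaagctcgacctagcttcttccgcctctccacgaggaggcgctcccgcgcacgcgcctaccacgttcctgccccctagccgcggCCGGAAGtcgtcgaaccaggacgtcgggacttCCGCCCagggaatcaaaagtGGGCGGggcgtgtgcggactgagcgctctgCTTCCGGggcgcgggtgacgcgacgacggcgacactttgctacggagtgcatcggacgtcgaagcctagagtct
U2AF2, the gene with the largest fall, had 1 ETS core and 7 GC boxes. HNRNPL and SF3B5 each had 1 CCAAT box, with 2 and 1 GC boxes, and PRPF6 had 2 ETS cores and 2 GC boxes. The largest fall and a rise thus both had the ETS letters in this window.

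In the U1 snRNP and Sm core, 8 of 10 genes fell under ITF-A in DoHH2, 7 fell under ITF-B, none rose, and in TMD8 6 fell and 1 rose with either compound. The background for every role group was falls of 17% to 17.8% of all genes and 33.7% to 35% of bright genes. Rises were 18.8% to 19.3% of all genes and 33.6% to 36.9% of bright genes. SNRPA, an RNA-binding protein of the U1 snRNP, fell most on average. It read 8.66, 8.77 and 8.77 in the DMSO arrays for ITF-A and 8.21, 8.14 and 8.21 with ITF-A in DoHH2, and 8.71, 8.80 and 8.80 against 8.20, 8.18 and 8.10 in TMD8. Treated and DMSO arrays did not overlap in either line. Its changes were -0.55 ± 0.0706 (SE, n = 3 per group) and -0.50 in DoHH2 and -0.61 and -0.63 in TMD8 with ITF-A and ITF-B. SNRPF and SNRPD1, both subunits of the Sm ring, fell in all 4 comparisons as well, SNRPF from -0.50 to -0.61 and SNRPD1 from -0.44 to -0.63. SNRPB and SNRPG, of the same ring, fell in all 4 as well (SNRPB from -0.29 to -0.59, SNRPG from -0.23 to -0.32).

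SNRPD3, another subunit of the Sm ring, moved against the others in TMD8. It read 7.55, 7.59 and 7.46 with DMSO against 7.87, 7.89 and 7.96 with ITF-A, a rise of 0.37 (limma, adjusted p = 2.86e-05), and it rose by 0.51 with ITF-B. In DoHH2 it did not pass, at 0.13 for ITF-A and 0.15 for ITF-B (adjusted p = 0.213 and 0.134). SNRPD2, the brightest of the 48 genes at a mean of 13.55, had changes between -0.04 and 0.09, of which none passed. Members of a single ring therefore included falls, a rise and changes that did not pass.

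SNRNP70, the U1-70K protein that binds the U1 RNA, fell in DoHH2 by 0.39 and 0.37. Its values there were 10.89, 11.01 and 11.04 with DMSO against 10.52, 10.56 and 10.69 with ITF-A. In TMD8 it read 11.83, 11.76 and 11.79 with DMSO and 11.72, 11.88 and 11.71 with ITF-A, so that the groups overlapped, and its change was -0.02 (adjusted p = 0.893).

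The group of SF1, U2AF and SF3 held both the largest fall and a steady rise. Of 11 genes 7 fell and 1 rose with either compound in DoHH2, 6 fell and 1 rose with ITF-A in TMD8, and 3 fell and 1 rose with ITF-B. The falls with ITF-B in TMD8 were 27.3% of the group, where 17.4% of all genes and 34.8% of bright genes fell. U2AF2, which encodes U2AF65 and binds the polypyrimidine tract before the intron's end, read 10.74, 10.78 and 10.73 in DoHH2 DMSO arrays and 8.91, 8.72 and 8.84 with ITF-A. With ITF-B it read 8.81, 8.82 and 8.84 against 10.77, 10.70 and 10.73. In TMD8 it read 11.40, 11.55 and 11.40 with DMSO and 10.02, 10.00 and 9.95 with ITF-A, and 11.55, 11.51 and 11.56 against 10.13, 10.11 and 9.99 for ITF-B. Treated and DMSO arrays did not overlap in either line. The level was 3.80-fold and 3.76-fold lower in DoHH2 and 2.75-fold lower with ITF-A in TMD8 (log2 changes of -1.93, -1.91 and -1.46 ± 0.0662, SE; limma, adjusted p = 5.42e-25, 7.93e-25 and 2.54e-21). A second, dimmer probe of U2AF2 with a mean of 6.80 fell by 0.87 and 0.98 in DoHH2 and by 0.98 and 1.02 in TMD8. U2AF1, the smaller partner that reads the last bases of the intron, fell by 0.32 in DoHH2 and 0.28 in TMD8 with ITF-A, and its changes with ITF-B, of -0.16 and -0.14, did not pass.

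SF3B3, a large scaffold subunit of SF3b, fell by 0.77 and 0.68 in DoHH2 and by 0.69 and 0.66 in TMD8. Its arrays in DoHH2 read 9.06, 9.03 and 8.92 with DMSO and 8.30, 8.25 and 8.15 with ITF-A. SF3B2, another SF3b subunit, fell from -0.21 to -0.41 over the 4 comparisons. Its fall with ITF-A in DoHH2 passed by little (limma, adjusted p = 0.0161). That call was lost with an offset of 16, at an adjusted p under 0.01, and without replicate 3 of ITF-A or of its DMSO control. SF3B5, the smallest of the SF3b subunits named here, rose instead. It read 10.48, 10.51 and 10.50 with DMSO and 10.94, 10.97 and 11.01 with ITF-A in DoHH2, and 9.63, 9.59 and 9.64 against 10.12, 10.19 and 10.19 in TMD8. The rise was 0.47 and 0.50 in DoHH2 and 0.55 and 0.50 in TMD8 (limma, adjusted p from 2.51e-08 to 7.08e-07), with every treated array above its controls. SF3B1, the subunit that contacts the branch point and is often mutated in blood cancers, had changes from -0.19 to -0.08, none of which passed. Subunits of SF3b thus fell, rose and did not pass within the same arrays.

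The PRPF genes did not share a direction. In DoHH2 2 of 6 fell and 2 rose with each compound, and in TMD8 1 fell and 4 rose with ITF-A and none fell and 3 rose with ITF-B. PRPF3, of the U4/U6 part of the tri-snRNP, read 9.54, 9.60 and 9.56 with DMSO against 10.00, 10.13 and 9.94 with ITF-A in TMD8, a rise of 0.46, and it rose by 0.52 with ITF-B. In DoHH2 PRPF3 rose by 0.21 and 0.22, a direction that turned to -0.02 and -0.04 when arrays were scaled to a common median. PRPF6, which bridges the U5 and U4/U6 parts, rose by 0.47 with ITF-A in DoHH2 and by 0.21 to 0.24 in the other 3 comparisons. PRPF4, a partner of PRPF3, rose in TMD8 by 0.34 and 0.31, with 0.02 and 0.09 in DoHH2, where it did not pass. PRPF8, the large protein at the heart of the spliceosome, fell by 0.30 and 0.45 in DoHH2 and by 0.20 with ITF-A in TMD8. PRPF19, the ubiquitin ligase of the Prp19 complex, fell by 0.19 and 0.25 in DoHH2 and rose by 0.20 with ITF-A in TMD8. The rises of PRPF6 other than with ITF-A in DoHH2, those of PRPF3 in DoHH2 and that of PRPF19, and likewise the falls of PRPF8 with ITF-A in TMD8 and of PRPF19 with ITF-A in DoHH2, passed by little (adjusted p from 0.0161 to 0.044). Each of these calls was lost at an adjusted p under 0.01 and without some single arrays. Each was also lost on at least 1 chip alone, where the groups of 1 line held 1 array each.

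Among the 10 SR genes none rose. In DoHH2 ITF-A lowered 7 and ITF-B 9 of them, and in TMD8 7 and 6. SRSF4 fell most. Its arrays read 10.92, 11.08 and 10.88 with DMSO and 10.06, 9.95 and 10.04 with ITF-A in DoHH2, and 9.97, 10.10 and 10.17 against 9.43, 9.36 and 9.22 in TMD8. The changes were -0.94 and -1.08 ± 0.0703 (SE) in DoHH2 and -0.74 and -0.75 in TMD8. SRSF1, the founding SR protein (ASF/SF2), fell by 0.83 and 0.82 in DoHH2 and by 0.56 and 0.52 in TMD8. In DoHH2 it read 11.82, 11.60 and 11.68 with DMSO and 10.94, 10.80 and 10.87 with ITF-A. SRSF7 fell by 0.85 and 0.84 in DoHH2 and by 0.38 and 0.49 in TMD8. SRSF3, the smallest SR protein, fell by 0.34 and 0.32 in DoHH2 and by 0.50 and 0.77 in TMD8. SRSF9, another member of the family, fell in all 4 comparisons by 0.22 to 0.34. SRSF11 had changes from -0.11 to 0.14 and SRSF2, better known as SC35, passed only with ITF-B in DoHH2 (-0.21).

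Of the 11 hnRNP genes 9 fell with either compound in DoHH2 and none rose, and in TMD8 7 fell under ITF-A, and 8 fell and 1 rose under ITF-B. This group had the lowest median in DoHH2, at -0.61 (ITF-A) and -0.69 (ITF-B), with -0.29 and -0.30 in TMD8. HNRNPA1, a repressor of exon use, read 9.11, 9.35 and 9.35 with DMSO and 8.11, 8.00 and 7.97 with ITF-A in DoHH2. In TMD8 it read 8.40, 8.12 and 8.44 against 7.43, 7.08 and 7.29. The fall was 1.24 and 1.27 in DoHH2 and 1.05 and 1.18 in TMD8 (SE 0.0881). HNRNPL, which binds CA-rich RNA and controls CD45 exons in lymphocytes, read 9.98, 10.25 and 10.04 with DMSO and 8.68, 8.58 and 8.70 with ITF-A in DoHH2, a level 2.71-fold lower. In TMD8 its arrays were 9.98, 10.15 and 10.11 against 9.32, 9.45 and 9.25, 1.67-fold lower. HNRNPD (AUF1), which also binds AU-rich RNA, fell almost alike everywhere, by 0.63 to 0.70. HNRNPM, HNRNPF and HNRNPA2B1 fell in all 4 comparisons too, HNRNPM by 0.28 to 0.30, HNRNPF by 0.30 to 0.69 and HNRNPA2B1 by 0.28 to 0.60.

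**Figure D3:**
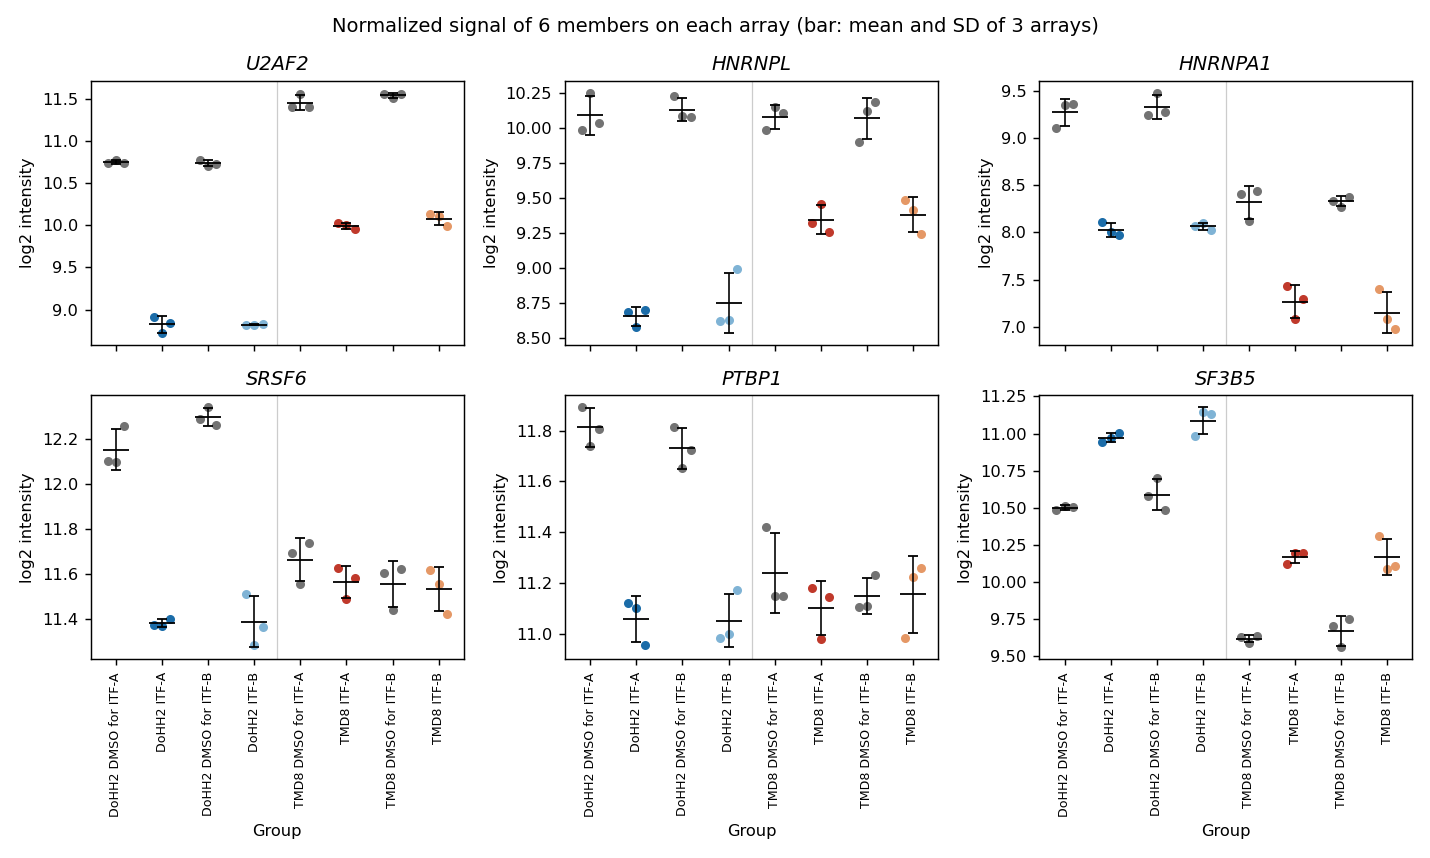
Normalized log2 intensity (y axis) of 6 genes on every array in the 8 groups (x axis), with a point per array and bars for the mean and SD of 3 arrays, DMSO groups in grey. DoHH2 arrays of SRSF6 lie between 12.10 and 12.26 with DMSO for ITF-A and between 11.37 and 11.40 with ITF-A, while those of TMD8 overlap.

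The lines were then compared by the difference of their changes. With ITF-A the change differed between the lines for 11 of the 48 genes, all of them higher in TMD8, where 11.4% of all genes and 19.1% of bright genes were called in this direction and 11% and 21.1% in the other. With ITF-B 17 were higher and 1, SRSF3, was lower in TMD8 (background 11.8% and 10.8% of all genes, 19.7% and 21.1% of bright genes). A dimmer probe of SRSF3, with a mean of 6.74, changed by -0.39 with ITF-B in DoHH2 and by -0.40 in TMD8. The difference between the lines was not tested on that probe. Both compounds called 9 genes: SNRNP70, SF1, U2AF2, PRPF19, SRSF6, SRSF7, HNRNPH1, HNRNPL and PTBP1. With the arrays scaled to a common median, bright genes as a whole moved to -0.15 and -0.17 in DoHH2 and to -0.02 and 0.07 in TMD8. The counts then rose to 20 and 31, all of them higher in TMD8, so that the SRSF3 call was lost. For ITF-B the count fell to 11 with an offset of 16 and to 10 at an adjusted p under 0.01. Fewer differences were called on each chip alone, where the groups of 1 line held 1 array each.

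SRSF6, an SR protein that responds to growth and stress signals, showed the largest difference. It read 12.10, 12.10 and 12.26 with DMSO and 11.37, 11.37 and 11.40 with ITF-A in DoHH2, but 11.70, 11.56 and 11.74 against 11.63, 11.49 and 11.58 in TMD8. The fall was 0.77 and 0.91 in DoHH2, while the changes in TMD8 were -0.10 and -0.02 (adjusted p = 0.43 and 0.907). The lines differed by 0.67 ± 0.104 (SE) for ITF-A and 0.89 for ITF-B (limma, adjusted p = 3.16e-06 and 9.83e-09). PTBP1, the polypyrimidine tract binding protein that represses exons and competes with U2AF2 for the tract, read 11.89, 11.74 and 11.81 against 11.12, 11.10 and 10.95 in DoHH2 and 11.42, 11.15 and 11.15 against 11.18, 10.98 and 11.14 in TMD8. It fell by 0.75 and 0.68 in DoHH2, with -0.14 and 0.01 in TMD8 and differences of 0.62 and 0.69. Both genes were lower in the TMD8 DMSO arrays, with differences of -0.61 and -0.58, and DoHH2 arrays with ITF-A read below every TMD8 DMSO array for ITF-A. For ITF-B the same sets of arrays overlapped for both genes.

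HNRNPL fell in both lines but by less in TMD8, with a difference of 0.70 for each compound. HNRNPH1, which binds runs of guanines, fell by 0.56 and 0.77 in DoHH2 and by 0.23 with ITF-B in TMD8, with a change of -0.09 for ITF-A there, and differed by 0.47 and 0.55. Its fall with ITF-B in TMD8 (adjusted p = 0.0269) was lost with an offset of 16, with median scaling (-0.13), on each chip alone, against both DMSO sets, with the mean of all probes (-0.11) and at an adjusted p under 0.01, and its 2 other probes read -0.06 and -0.05 there, which did not pass. The difference for SRSF7 was 0.47 and 0.35, and that for U2AF2 was 0.47 and 0.45, while its dimmer probe changed by -0.87 and -0.98 in DoHH2 against -0.98 and -1.02 in TMD8. SF1, the branch point binding protein, fell by 0.28 and 0.20 in DoHH2 and had changes of 0.16 and 0.14 in TMD8, which did not pass. A second SF1 probe of like brightness, with a mean of 7.08 against 7.09, read -0.25 and -0.16 in DoHH2 and -0.07 and -0.11 in TMD8, and the dimmest, with a mean of 6.32, read -0.31 and -0.23 against -0.16 and -0.15. Of these the values of both probes for ITF-A in DoHH2, and of the dimmest for ITF-B there, passed, and the difference between the lines was not tested on them.

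**Figure D4:**
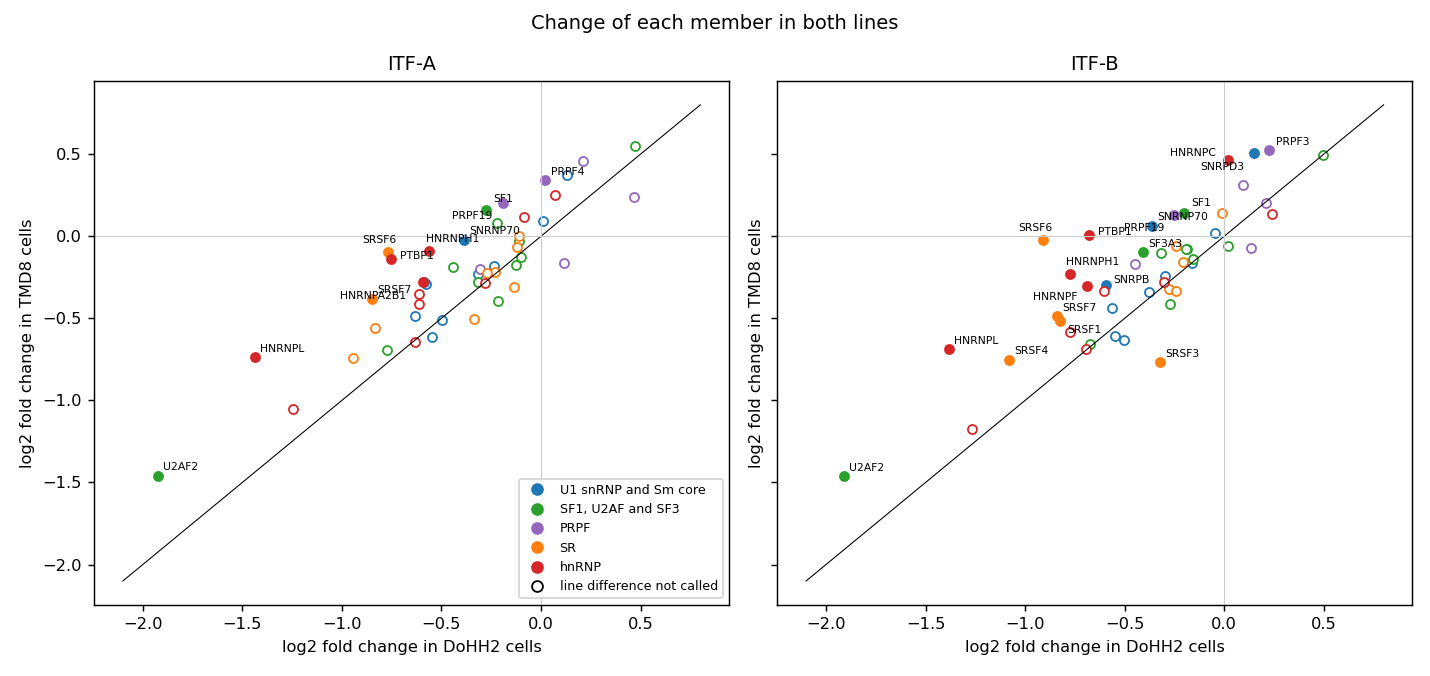
Log2 fold change in DoHH2 (x axis) against that in TMD8 (y axis) for the 48 genes with ITF-A (left) and ITF-B (right), coloured by role group, filled and named where the difference between the lines passed, with a line of equal change. Filled points lie above that line, except for SRSF3 with ITF-B.

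The DMSO arrays of the lines differed for 30 of the 48 genes, 9 higher and 21 lower in TMD8, where 21.2% of all genes were higher and 22.6% lower (37.5% and 40.3% of bright genes). PRPF31, a tri-snRNP protein known from retinitis pigmentosa, was 1.62 higher in TMD8. It read 9.76, 10.02 and 9.95 in DoHH2 and 11.62, 11.45 and 11.64 in TMD8 in the DMSO arrays for ITF-A, and its changes with the compounds, from -0.17 to 0.13, did not pass. SF3A2, of the SF3a complex, was 1.08 higher, while its partner SF3A3 was 0.98 lower. SRSF10, an SR protein that acts mainly as a repressor, was 1.04 lower (difference of -1.04), with DMSO values of 8.78, 8.66 and 8.56 in DoHH2 and 7.64, 7.78 and 7.61 in TMD8. SF3B5, SRSF4 and HNRNPA1, described above for their changes, were lower in TMD8 by differences of -0.89, -0.89 and -0.94. Within the SF3a complex the lines thus differed in both directions.

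The compounds were given at different doses, so that their values stand side by side without a ranking. A difference between the compounds was called by limma for 0 of the 48 genes and 0% of all genes in each line. At an unadjusted p under 0.05 there were 3 of 48 genes in DoHH2 and 1 in TMD8, against 4.2% and 4.1% of all genes. The differences ran from -0.33 for HNRNPU to 0.26 for PRPF6 in DoHH2 and from -0.21 for HNRNPC to 0.27 for SRSF3 in TMD8. The 95% intervals were ± 0.208 at the median gene. These extreme differences did not pass (limma, adjusted p = 0.999 for each), so that differences of this size and smaller were not resolved.

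For genes with several probes the dimmer probes were read as well. Of 32 such probes in DoHH2 with ITF-A, 26 belonged to a gene whose brightest probe fell, and 17 of these fell, 9 did not pass and none rose. In TMD8 with ITF-A there were 20, of which 11 fell, 8 did not pass and 1 rose. The exception was HNRNPK, a poly(C)-binding protein. Its 3 brighter probes fell in all 4 comparisons, by 0.41 to 0.78 for the brightest, while a probe of another transcript with a mean of 6.44 rose by 0.24 and 0.28 in TMD8 and read 0.01 and 0.09 in DoHH2.

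HNRNPU, a scaffold protein of the nucleus, passed nowhere by its brightest probe, whose changes ran from -0.09 to 0.24. A probe annotated to another of its transcripts, with a mean of 7.10, fell in all 4 comparisons by 0.63, 0.65, 0.78 and 0.75. HNRNPC, which binds uridine tracts, rose by 0.47 with ITF-B in TMD8 at its brightest probe. Its second probe read 0.0027 and -0.04 in TMD8, which did not pass, and fell by 0.44 and 0.53 in DoHH2. The second probe of HNRNPA1 had changes of -0.02 and -0.09 in DoHH2, where the brightest fell by 1.24 and 1.27, and fell by 0.32 and 0.38 in TMD8. HNRNPA1 has many processed copies in the genome, and whether its probes also detect these was not tested. HNRNPA2B1, a relative of HNRNPA1 that fell in all 4 comparisons at its brightest probe, had 3 other probes (means of 10.46, 9.72 and 9.32) that read -0.16 to -0.02 in DoHH2, and none passed there. In TMD8 the brightest of these fell by 0.28 and 0.35, and the others did not pass. The third probe of SNRNP70 rose by 0.26 with ITF-A in TMD8, where the other probes did not pass.

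**Figure D5:**
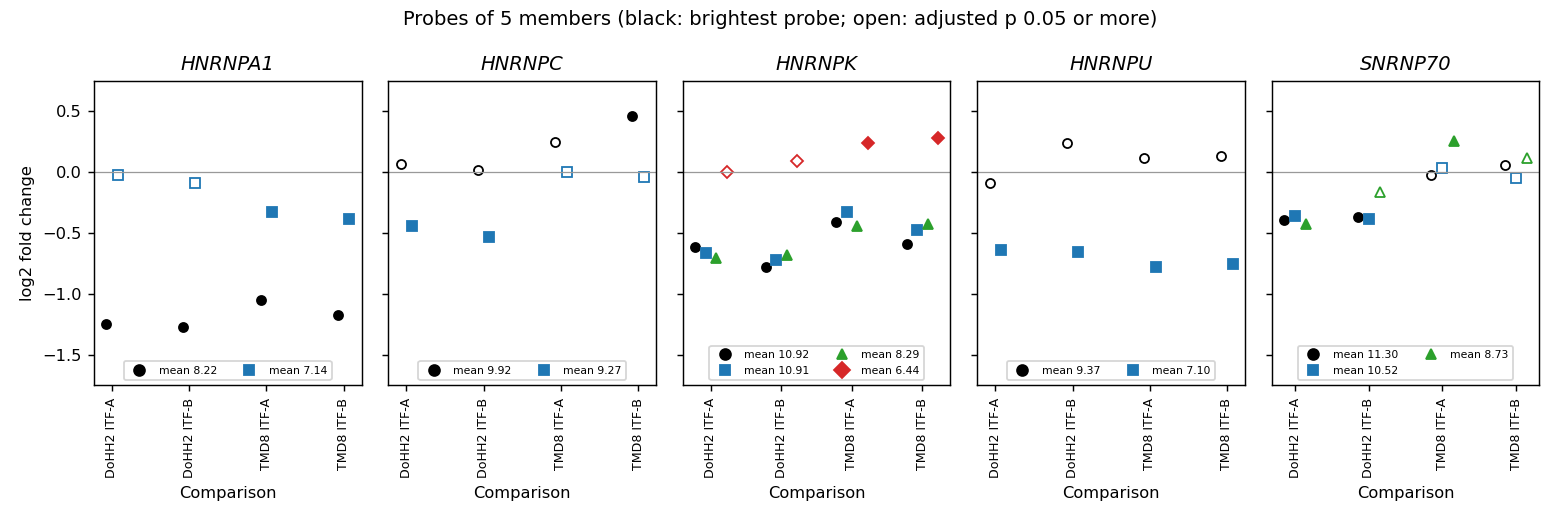
Log2 fold change (y axis) in the 4 comparisons (x axis) for each probe of 5 genes, with the brightest probe in black, the mean log2 intensity in the legend and open symbols where adjusted p was 0.05 or more. HNRNPU falls only at its dimmer probe, and 1 probe of HNRNPK lies above 0 while the other 3 lie below.

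Among other splicing genes, in lists also chosen with earlier results of these data known, more fell than rose as well. Of 115 such genes in 4 lists, 61 fell and 22 rose with ITF-A in DoHH2 (53% and 19.1%). All genes had 17.2% and 19% there, and bright genes 34.1% and 35.9%. In TMD8 55 fell and 22 rose (47.8% and 19.1%, all genes 17.8% and 19.2%, bright genes 35% and 33.6%). Medians were -0.22 and -0.15. With ITF-B 59 fell and 25 rose in DoHH2 (51.3% and 21.7%, all genes 17% and 18.8%, bright genes 33.7% and 36.9%). In TMD8 52 fell and 24 rose (45.2% and 20.9%, all genes 17.4% and 19.3%, bright genes 34.8% and 34%). The same backgrounds apply to each of the 4 lists. Among 37 genes of the other U snRNPs and the LSM rings, 20 fell and 4 rose with ITF-A in DoHH2 (54.1% and 10.8%). In TMD8 17 fell and 6 rose (45.9% and 16.2%). With ITF-B 18 fell and 5 rose in DoHH2 (48.6% and 13.5%), and 16 fell and 7 rose in TMD8 (43.2% and 18.9%). PUF60, a relative of U2AF2 that helps the U2 snRNP to bind, fell by 0.76 to 1.08 and SNRNP40, of the U5 snRNP, by 0.67 to 1.03, while SNRNP48, of the minor spliceosome, rose by 0.40 to 0.78 and USP39, of the tri-snRNP, by 0.40 to 0.58.

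Of 24 genes of the Prp19 complex, helicases and step factors, 11 fell and 7 rose with ITF-A in DoHH2 (45.8% and 29.2%). In TMD8 13 fell and 4 rose (54.2% and 16.7%). With ITF-B 9 fell and 8 rose in DoHH2 (37.5% and 33.3%), near the 33.7% and 36.9% of bright genes. In TMD8 ITF-B gave 11 falls and 5 rises (45.8% and 20.8%). SLU7, which acts in the choice of the 3′ splice site, rose by 0.79 to 0.96 and BUD31 by 0.51 to 0.80, whereas RBM22, at the catalytic core, fell by 0.70 to 0.90 and DHX15, a helicase that takes spliceosomes apart, by 0.53 to 0.66. Of 19 SR-related proteins and SR kinases 11 fell and 7 rose with ITF-A in DoHH2 (57.9% and 36.8%). In TMD8 7 fell and 6 rose (36.8% and 31.6%), near the 35% and 33.6% of bright genes. With ITF-B 11 fell and 6 rose in DoHH2 (57.9% and 31.6%), and the TMD8 counts were those of ITF-A. TRA2A, an exon activator, rose by 0.36 to 0.78 and AKAP17A by 0.35 to 0.53, while SREK1 fell by 0.73 to 0.87 and SRSF8 by 0.64 to 0.90. Of 35 other hnRNP and RNA-binding regulators 19 fell and 4 rose with ITF-A in DoHH2 (54.3% and 11.4%). In TMD8 18 fell and 6 rose (51.4% and 17.1%). With ITF-B 21 fell and 6 rose in DoHH2 (60% and 17.1%), and the TMD8 counts were those of ITF-A. CELF2, a splicing regulator of lymphocytes, fell more than any member in TMD8, by 1.67 and 1.86, and RBMX fell by 0.97 to 1.37. RBFOX2 rose by 0.53 to 0.67, and ELAVL1 (HuR) by 0.66 and 0.67 in TMD8. In DoHH2 ELAVL1 rose by 0.19 with ITF-B, a call lost with an offset of 16, with median scaling (0.01) and at an adjusted p under 0.01.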

How the data were processed

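The authors deposited an intensity for each of 47231 probes on 24 arrays and, in a second table, log2 values. The paper's methods name quantile normalization followed by ComBat for the batch, and whether the deposited log2 values were taken before or after ComBat is not given in the sources used here. The intensity values were corrected for background (normexp, offset 50), quantile normalized and taken to log2. One model with the 8 groups and the 2 chips was fitted in R 4.3.3 with limma 3.58.1, and p-values were adjusted over all probes by Benjamini-Hochberg. The fit was tested on simulated data. Python 3.11.15 with matplotlib 3.10.9 made the figures. Doses and times are those of the paper's methods.

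Of the probes 30113 carry 1 gene symbol, 8 several and 17110 none. Symbols were updated by Entrez ID, and some genes are not reported here. The members and all lists were chosen with earlier results of these data known. Genes named in full are, per role group, up to 2 rises and 3 falls by mean change over the 4 comparisons, up to 6 line differences and 4 DMSO differences, genes whose probes went opposite ways, and up to 2 rises and 2 falls per list of other splicing genes. Other members named were picked after their values were seen, to complete a complex.

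Arrays of the same experiment number were taken as possible pairs. Their deviations correlated at 0.0524 and 0.0606 for DoHH2 and at 0.0488 and 0.024 for TMD8 (each compound in turn). The paper describes the 3 experiments as independent. The p-values rest on the spread between arrays within groups, pooled over the 8 groups, that remains after the term for the chip. The number of arrays limits the precision. Alternatives were other background corrections and scalings, the authors' log2 table, a filter on dim probes, no term for the chip, the experiment as a block, each chip alone, only the arrays compared, array weights, both DMSO sets as control, all probes of a gene, a stricter threshold and each array left out.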

Additional observations from a re-analysis of the deposited data

Results flagged for a closer look

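These genes changed differently in the lines by a test of the difference itself. Each value is the log2 change in TMD8 cells minus that in DoHH2 cells, and all passed limma's adjusted p of 0.05. With ITF-A the differences were SNRNP70 0.37, SF1 0.44, U2AF2 0.47, PRPF4 0.32, PRPF19 0.40, SRSF6 0.67, SRSF7 0.47, HNRNPA2B1 0.31, HNRNPH1 0.47, HNRNPL 0.70 and PTBP1 0.62. With ITF-B they were SNRNP70 0.43, SNRPB 0.29, SNRPD3 0.36, SF1 0.34, U2AF2 0.45, SF3A3 0.31, PRPF3 0.30, PRPF19 0.38, SRSF1 0.31, SRSF3 -0.44, SRSF4 0.33, SRSF6 0.89, SRSF7 0.35, HNRNPC 0.45, HNRNPF 0.39, HNRNPH1 0.55, HNRNPL 0.70 and PTBP1 0.69. HNRNPA2B1 with ITF-A and SNRPB with ITF-B passed by little (limma, adjusted p = 0.0475 and 0.0492). Another probe of HNRNPA2B1, with a mean of 10.46, changed by -0.11 and -0.06 in DoHH2 against -0.28 and -0.35 in TMD8. A dimmer probe of SRSF3 changed by -0.39 with ITF-B in DoHH2 and by -0.40 in TMD8. The lines differ in origin and in their levels before treatment, and what sets the differences was not tested.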

How the results depend on the processing

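Over the alternatives, 22 to 38 members fell with ITF-A and 24 to 37 with ITF-B in DoHH2, 15 to 29 and 15 to 24 fell in TMD8, and every median stayed below 0. ComBat on the chip was planned and is not part of the final analysis. With the experiment as a replicate block in place of the chip, the counts that fell stayed at 33, 34, 27 and 23 and the line differences were 11 and 17. The deposited log2 table gave a TMD8 ITF-A median of -0.1822. An offset of 16 gave a DoHH2 ITF-A median of -0.3436, 1 rise with ITF-B in DoHH2 and 11 line differences with ITF-B. Median scaling gave medians of -0.4926, -0.515 and -0.0888 (DoHH2 ITF-A and ITF-B, TMD8 ITF-B), 1 rise with ITF-B in DoHH2, 20 and 31 line differences, and PRPF3 in DoHH2 at -0.01852 and -0.03831. Chip 1 alone gave 1 rise with ITF-A in DoHH2, the same medians at -0.338, -0.3616 and -0.2044, and 5 and 4 line differences. Chip 2 alone gave 1 rise and a median of -0.3409 with ITF-B in DoHH2, 15 falls and 3 rises with each compound in TMD8, and 4 and 8 line differences. Both chips alone hold fewer arrays. Both DMSO sets as control gave 5 rises with ITF-B in DoHH2. The mean of all probes gave medians of -0.2922 and -0.1904 with ITF-A (DoHH2, TMD8). An adjusted p under 0.01 gave 1 rise with ITF-B in DoHH2 and 10 line differences with ITF-B. The cause of these shifts was not tested.

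With each array left out, medians ran from -0.3249 to -0.2835 and from -0.3411 to -0.2917 in DoHH2, and from -0.2297 to -0.2077 and from -0.2125 to -0.1374 in TMD8. Falls numbered 30 to 33, 28 to 35, 22 to 28 and 20 to 23. Rises with ITF-B in DoHH2 were 1 to 4, with 1 without DMSO replicate 3 or ITF-B replicate 2. Line differences were 10 to 12 and 13 to 18. Of 2408 values of named genes under the other alternatives, 2300 were counted as the same, 92 lost and 14 gained the call, and 2 called values reversed. Values not called in the main fit were counted as the same also where their direction turned.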
